A study of Mus musculus with 26 samples.

Results

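Described here are 10 protein-coding genes of mouse chromosome 14 in the left ventricle: Arhgap22, Opn4, Ncoa4, Wdfy4, Mmrn2, Galnt15, Ptk2b, Trim13, Scara5 and Epsti1. Each starts more than 10 Mb from Lgals3, the galectin-3 gene that the study knocked out. They were picked because their counts differed in a comparison of knockout with galectin-3-intact ventricles, and their rows are 10 of the 15249 in the table. Their knockout differences are therefore given as a description, without p-values, and where such a difference is said to have been called this only records how it stood in the fit that the choice drew on. The RNA came from left ventricles of mice labelled as C57BL6 in all 4 groups. The groups are wild type (wt, 6 libraries), mice overexpressing the Hippo kinase Mst-1 (MstTg, 7), Gal-3 knock-out mice (Gal3Ko, 8) and mice with both alterations (Mst1Gal3, 5). Dilated cardiomyopathy is the disease that the Mst-1 line stands for, per the design text. The promoter of the Mst-1 transgene, the strain in which the knockout allele was made, and the mice's age and sex were not given in these sources.

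The genes do different work. Ncoa4 and Scara5 handle ferritin, the iron storage protein: NCOA4 is the receptor that carries ferritin to the lysosome for breakdown, and SCARA5 is a scavenger receptor that takes ferritin up from outside the cell. Ptk2b encodes PYK2, a focal adhesion kinase relative that responds to calcium, Arhgap22 a GTPase-activating protein that acts on Rac, and Opn4 melanopsin, a light receptor best known from retinal ganglion cells. Epsti1 is an interferon-inducible gene, WDFY4 is needed by dendritic cells for cross-presentation of antigen, and TRIM13 is a ubiquitin ligase anchored in the endoplasmic reticulum. MMRN2 (multimerin 2) is an extracellular matrix protein of the endothelium, and GALNT15 belongs to the enzyme family that starts mucin-type O-glycosylation.

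Library totals ran from 18580405 to 32663735 counts, so that 1 count in the smallest library was 0.0538 CPM (counts scaled to library size, here with edgeR's TMM factors). Stk4, which encodes Mst-1, stood at 23.6 ± 1.27 CPM (SD, n = 6) in wt and 23.3 ± 1.83 CPM (SD, n = 8) in Gal3Ko, against 949 ± 74.7 CPM (SD, n = 7) in MstTg and 977 ± 119 CPM (SD, n = 5) in Mst1Gal3. Lgals3 stood at 55.2 ± 3.39 CPM (SD, n = 7) in MstTg and 3.91 ± 1.04 CPM (SD, n = 5) in Mst1Gal3. With 1.64 ± 0.495 CPM (SD, n = 6) in wt and 2.14 ± 0.369 CPM (SD, n = 8) in Gal3Ko it was not lower in the libraries labelled Gal3Ko, so its counts do not check that label. Of 133 other tested genes within 10 Mb of Lgals3, 14 were called in both Gal3Ko against wt and Mst1Gal3 against MstTg (edgeR adjusted p under 0.05). Each of these had the same sign in both. Directions that involve Gal3Ko rest on the label and on this likeness to Mst1Gal3. In 6 libraries (wt replicate 5, MstTg replicate 5, Gal3Ko replicates 4, 5 and 8, Mst1Gal3 replicate 3) the atrial genes Sln, Myl7 and Myl4 summed to more than 30 CPM, up to 127 CPM, against a group median of 3.09 to 12.1 CPM. Values without these 6 libraries are given where they change a call. The labels name no batch and do not say that the libraries of a group are separate mice, so p-values measure the spread between these libraries. The mitochondrial genome took 31.03% ± 2.36 of counts in wt (SD, n = 6), 33.0% ± 3.64 in Gal3Ko (n = 8), 17.7% ± 2.79 in MstTg (n = 7) and 18.7% ± 2.95 in Mst1Gal3 (n = 5). In whole tissue, fewer cells of a type and less RNA per cell cannot be told apart.

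Per length of exon, Mmrn2 was the most abundant of the 10 genes in wt, at 10.2 RPKM (CPM divided by the exon length in kilobases). Galnt15 followed at 6.89, Scara5 at 3.87, Trim13 at 2.66, Ncoa4 at 2.57 and Ptk2b at 1.14 RPKM. Wdfy4 at 0.947, Epsti1 at 0.653, Arhgap22 at 0.578 and Opn4 at 0.359 RPKM were the scarce members. The neighbouring pairs Trim13 and Ncoa4 (SD 0.450 and 0.178), Ptk2b and Wdfy4 (0.346 and 0.179), and Epsti1 and Arhgap22 (0.158 and 0.134) differed by less than the larger of their SDs. Opn4 had 2 to 17 counts per MstTg library and Epsti1 7 to 24 per Gal3Ko library, so the precision of these genes is limited by depth.

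**Figure D1:**
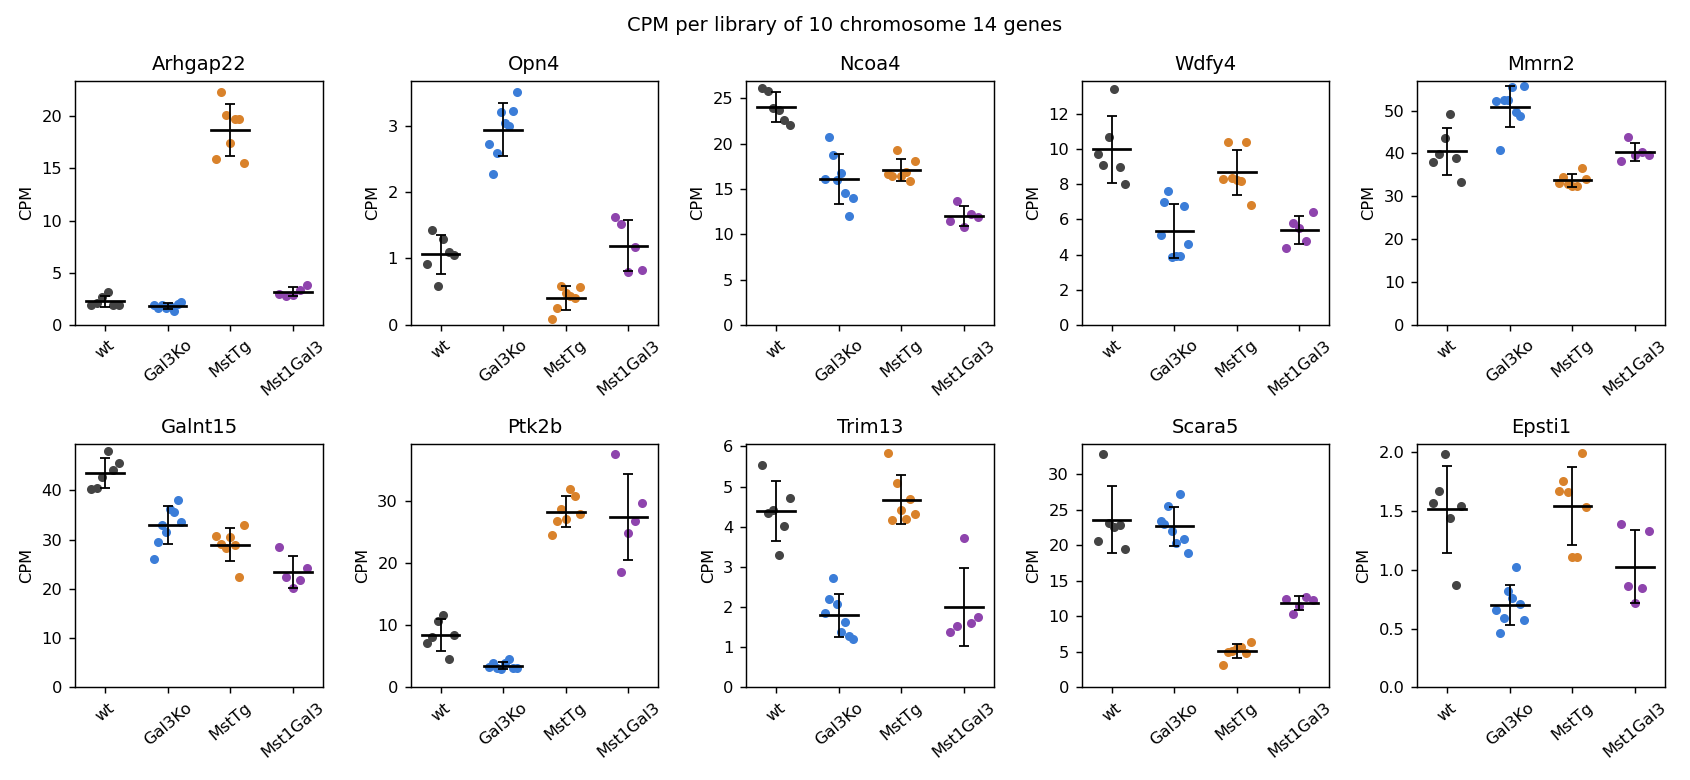
CPM of each of the 10 genes (1 panel a gene, y axis from 0) in the 26 libraries, by group along the x axis; points are libraries, the horizontal line is the group mean and the bar 1 SD. Opn4 is highest in Gal3Ko, Trim13 and Wdfy4 are low in both knockout groups, Arhgap22 is high in MstTg alone and Scara5 sits at 3 levels.

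Of the genes, 6 lie toward the start of the chromosome from Lgals3, between 12.77 and 15.34 Mb from its start, and 4 lie on the other side, between 14.23 and 30.54 Mb away (GRCm38, GENCODE M21 gene starts, counted at the lower coordinate or at the upper one for genes of the minus strand). The limit of 10 Mb cuts through a longer list: of 350 tested genes on chromosome 14 beyond it, 53 were called (edgeR quasi-likelihood test, adjusted p under 0.05) in Gal3Ko against wt or in Mst1Gal3 against MstTg, and 8 in both. These 8 are Anxa7, Il17rd and the members Galnt15, Ncoa4, Wdfy4, Mmrn2, Opn4 and Trim13. Among called genes, the nearest outside the limit was Phf11d at 12.0 Mb, which is not a member (Mst1Gal3 minus MstTg -0.93 ± 0.14, log2), then Opn4 at 12.77 Mb. Nearest inside were Sdr39u1 at 8.53 Mb (0.36 ± 0.09) and Irf9 at 8.24 Mb (-0.80 ± 0.10). Beyond 10 Mb, 4% of tested chromosome 14 genes were called in Gal3Ko against wt and 13.4% in Mst1Gal3 against MstTg. Within 10 Mb the shares were 12% and 21.1% of 133 genes, and on the other chromosomes 0.156% and 4.54% of 14711 genes. The genes were chosen from those called, so these shares say nothing about the 10 beyond where they were drawn from.

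**Figure D2:**
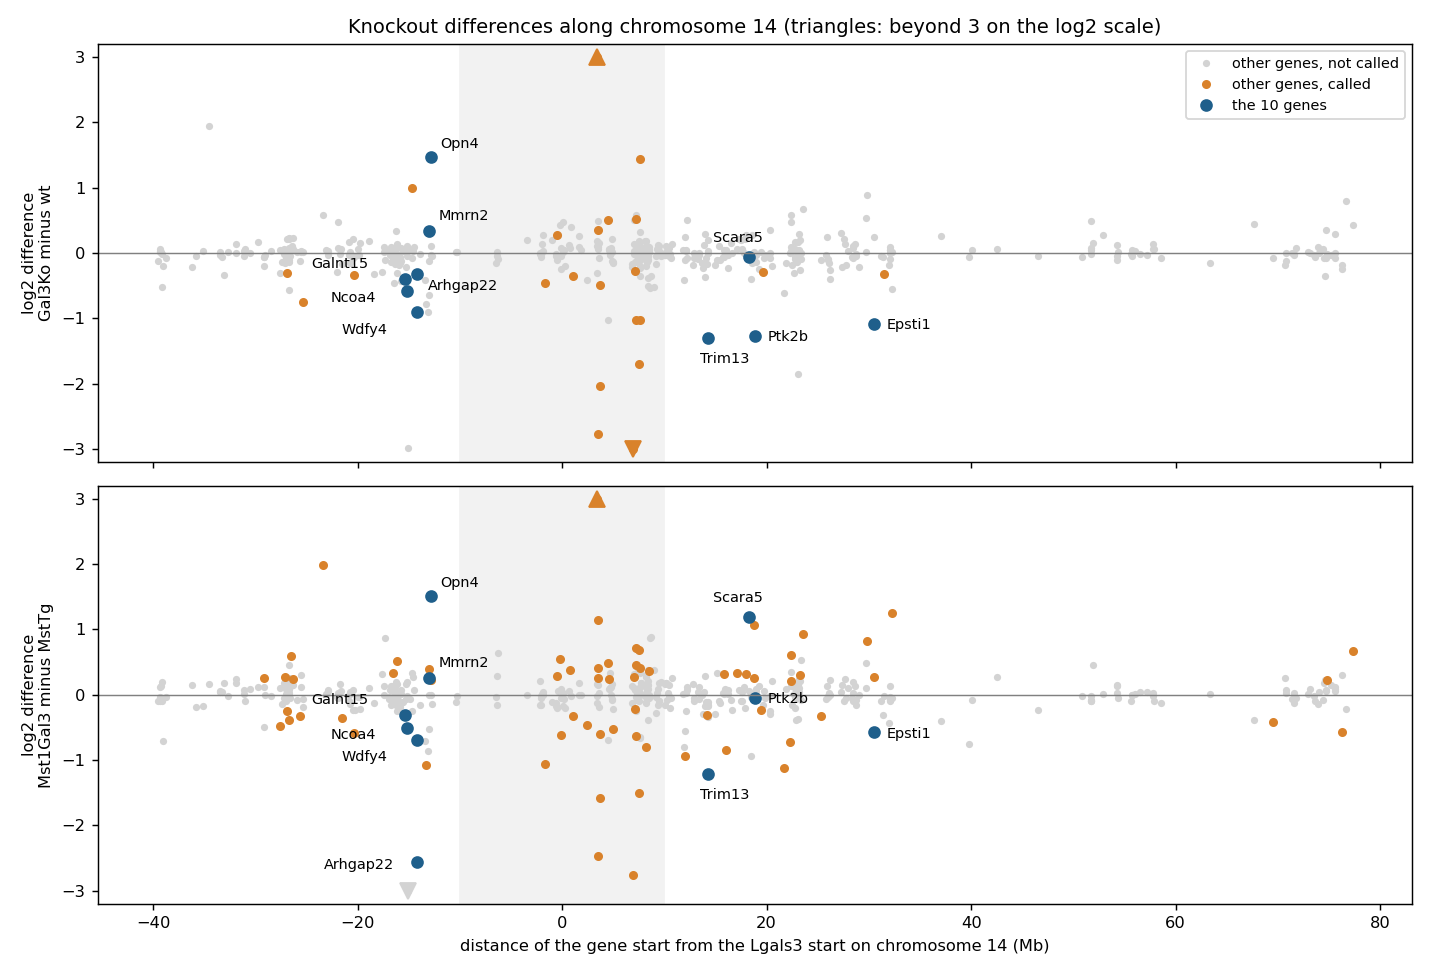
Log2 difference of every tested chromosome 14 gene (y axis) against the distance of its start from that of Lgals3 in Mb (x axis), for Gal3Ko minus wt (upper panel) and Mst1Gal3 minus MstTg (lower panel); the grey band marks 10 Mb on either side, and triangles lie beyond 3. The 10 genes (blue) lie among called (orange) and uncalled (grey) genes. Opn4 and Trim13 lie far from 0 in both panels, Arhgap22 and Scara5 in the lower panel only and Ptk2b in the upper one only.

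Ncoa4 (ENSMUSG00000056234, chromosome 14, 32159865 to 32179855, plus strand) was lower with each alteration and lowest with both. It ran from 22.1 to 26.2 CPM in wt (median 23.8) and from 15.9 to 19.3 CPM in MstTg (median 16.7). In Gal3Ko it ran from 12.1 to 20.75 CPM (median 16.02), and the 5 Mst1Gal3 libraries held 11.4, 13.6, 10.8, 12.3 and 11.9 CPM. All wt libraries lay above every other library, MstTg and Gal3Ko overlapped, and Mst1Gal3 overlapped Gal3Ko but not MstTg. The knockout difference was -0.58 ± 0.08 (log2 ± SE) outside the Mst-1 background and -0.51 ± 0.09 within it. Mst-1 lowered Ncoa4 by a log2 fold change of -0.49 ± 0.08 against wt (edgeR adjusted p = 8.28e-06). In the knockout the Mst-1 change was -0.42 ± 0.09 (edgeR adjusted p = 0.000223). With libraries scaled to their totals alone the latter became -0.18 and was no longer called (edgeR adjusted p = 0.0594).

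Scara5 (ENSMUSG00000022032, chromosome 14, 65666403 to 65764826, plus strand) showed 3 levels. Wt (19.55 to 32.8 CPM, median 22.7) and Gal3Ko (18.9 to 27.3 CPM, median 22.55) covered overlapping ranges. The MstTg libraries ran from 3.21 to 6.39 CPM (median 5.10), and the Mst1Gal3 libraries lay between, at 12.4, 10.3, 11.4, 12.8 and 12.3 CPM. No MstTg library overlapped any other group, and no Mst1Gal3 library did either. Mst-1 lowered Scara5 from 23.6 ± 4.735 CPM (SD, n = 6) to 5.12 ± 0.992 CPM (SD, n = 7), a log2 fold change of -2.19 ± 0.12 (edgeR adjusted p = 4.84e-16, lower in 7 of 7 libraries). In the knockout the fall was -0.94 ± 0.12 (edgeR adjusted p = 6.03e-08). By knockout, the log2 difference was -0.06 ± 0.11 outside the Mst-1 background and 1.20 ± 0.13 within it, where Mst1Gal3 stood 2.31-fold above MstTg.

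The pathway of these 2 genes, a list of 21 ferritin and iron-handling genes, had 19 measured. In MstTg against wt 3 rose and 8 fell, beside 28.2% of all genes called higher and 26.8% lower, with a median log2 change of -0.19 against 0.02 over all genes. In Mst1Gal3 against Gal3Ko 2 rose and 9 fell, beside 26.9% and 25.6% (median -0.11 against 0.01). The same shares of all genes stand behind the Mst-1 counts of every list that follows, and a list near them shows no more than genes at large. Counts scaled to library totals have other shares behind them, whereas log2 changes given with an SE for single list genes are all on TMM scaling. There 7789 of 15249 genes were called higher and 2166 lower in MstTg against wt, and 7374 and 1929 in Mst1Gal3 against Gal3Ko. Scaled to library totals, the split of the iron list turned to 7 higher and 3 lower in both comparisons (medians 0.06 and 0.13, against 0.27 and 0.24 over all genes). Slc40a1, the iron exporter ferroportin, fell (-1.24 ± 0.08, edgeR adjusted p = 2.83e-14), as did the ferritin heavy chain Fth1 (-0.59 ± 0.06, edgeR adjusted p = 1.60e-09). Cp, the ferroxidase ceruloplasmin, rose (1.25 ± 0.10, edgeR adjusted p = 5.22e-12). None of the 19 was called in Gal3Ko against wt, where 2 had an unadjusted p under 0.05 and DESeq2 and limma-voom called 0. Slc40a1 was the 1 called in Mst1Gal3 against MstTg, where it was higher (0.51 ± 0.09, edgeR adjusted p = 0.000372).

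Ptk2b (ENSMUSG00000059456, chromosome 14, 66153257 to 66281052, minus strand) was the member with the strongest rise under Mst-1 in the knockout. Wt libraries ran from 4.57 to 11.7 CPM (median 8.30) and Gal3Ko libraries from 2.96 to 4.62 CPM (median 3.225). MstTg libraries ran from 24.5 to 31.95 CPM (median 27.9), and Mst1Gal3 libraries held 37.45, 18.5, 24.8, 26.8 and 29.7 CPM. Both Mst-1 groups lay above both others with no overlap and overlapped each other. The lowest wt library lay just under the highest Gal3Ko library, and the other wt libraries lay above all of Gal3Ko. Mst-1 raised Ptk2b 3.35-fold outside the knockout (1.75 ± 0.16, edgeR adjusted p = 1.80e-10) and 7.80-fold in it (2.97 ± 0.16, edgeR adjusted p = 7.97e-15). The knockout difference was -1.27 ± 0.17 without Mst-1 and -0.04 ± 0.15 with it.

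Arhgap22 (ENSMUSG00000063506, chromosome 14, 33214026 to 33369934, plus strand) was abundant in 1 group only. In wt it ran from 1.85 to 3.095 CPM (median 1.98) and in Gal3Ko from 1.28 to 2.145 CPM (median 1.87). In MstTg it ran from 15.5 to 22.3 CPM (median 19.7), while the Mst1Gal3 libraries held 2.97, 2.80, 2.88, 3.33 and 3.85 CPM. Every MstTg library was far above every other library, and Mst1Gal3 lay above Gal3Ko and overlapped wt. Mst-1 raised Arhgap22 8.35-fold (3.07 ± 0.12, edgeR adjusted p = 1.24e-19), the largest Mst-1 rise among the 10. In the knockout the rise was 1.775-fold (0.83 ± 0.14, edgeR adjusted p = 5.19e-06). By knockout, the log2 difference was -0.31 ± 0.14 outside the Mst-1 background and -2.56 ± 0.12 within it, a level 5.90-fold lower. The antisense gene Gm15512 covers 36.9% of the exon bases of Arhgap22 and had no row of its own in the table. The strand setting of the counting was not stated, so reads from the 2 genes cannot be told apart.

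Wdfy4 lies next to Arhgap22, its start 28.5 kb away and on the opposite strand, and was not called with Mst-1 where Arhgap22 rose. Their promoters are shown because the genes lie side by side with unlike values, each as the 250 bases before the RefSeq start (GRCm38.p6), 5′ to 3′ in the direction of the gene, with matches to 4 motifs in capitals. The motifs, searched on both strands, are GGAATG (TEAD, the factors downstream of Hippo kinases), GAAANNGAA (the core of the interferon response element), TGANTCA (AP-1) and TATAAA (bound by TBP). They occur in 12.6%, 7.13%, 6.75% and 12.4% of 32851 promoters of this length. Arhgap22 (chr14:33216573-33216822, plus strand) has no match, and Wdfy4 (chr14:33185067-33185316, minus strand) has 1, to the TEAD letters on the opposite strand, starting 56 bases before its RefSeq start. Both windows lie inside the GENCODE spans of their genes (33214026 to 33369934 and 32959547 to 33185508). These RefSeq starts thus differ from the GENCODE starts between which the 28.5 kb were counted. A match describes letters and is not a shown binding site.
Arhgap22: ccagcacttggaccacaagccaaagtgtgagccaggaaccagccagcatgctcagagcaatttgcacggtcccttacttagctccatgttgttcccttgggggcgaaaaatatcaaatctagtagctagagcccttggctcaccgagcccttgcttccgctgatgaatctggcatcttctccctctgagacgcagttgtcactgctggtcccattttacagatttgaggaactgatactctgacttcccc
Wdfy4: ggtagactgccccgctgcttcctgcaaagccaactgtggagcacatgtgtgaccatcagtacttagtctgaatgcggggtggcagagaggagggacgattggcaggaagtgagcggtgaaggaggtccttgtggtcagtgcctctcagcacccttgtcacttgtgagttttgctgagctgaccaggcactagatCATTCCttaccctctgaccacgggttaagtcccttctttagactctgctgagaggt

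Of 22 other genes of PYK2 signalling and its partners, all measured, 8 rose and 3 fell in MstTg against wt (median log2 change 0.02, as over all genes), and 10 rose and 3 fell in Mst1Gal3 against Gal3Ko (median 0.07). Scaled to library totals, 17 and 14 rose and 0 fell. Src, the kinase that binds active PYK2, rose most clearly (1.99 ± 0.10, edgeR adjusted p = 1.69e-17), and the adaptor Bcar1 (p130Cas) rose by 0.53 ± 0.08 (edgeR adjusted p = 1.14e-06). None of the 22 was called by edgeR in a knockout comparison, with 1 in Gal3Ko against wt and 4 in Mst1Gal3 against MstTg at an unadjusted p under 0.05, and 0 and 0 called by DESeq2 and 0 and 0 by limma-voom.

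Opn4 (ENSMUSG00000021799, chromosome 14, 34590618 to 34600142, minus strand) was higher with the knockout and lower with Mst-1. It ran from 0.581 to 1.43 CPM in wt (median 1.08) and from 2.27 to 3.51 CPM in Gal3Ko (median 3.02). It ran from 0.0903 to 0.579 CPM in MstTg (median 0.431), where 1 library had 2 counts, and the Mst1Gal3 libraries held 1.625, 1.52, 0.795, 1.18 and 0.827 CPM. Gal3Ko lay above every other group, Mst1Gal3 overlapped wt, and MstTg lay below all, by a narrow margin from wt. Gal3Ko minus wt was 1.48 ± 0.21 and Mst1Gal3 minus MstTg 1.52 ± 0.26 (log2), 2.77-fold and 2.97-fold by group means. Mst-1 changed Opn4 by -1.36 ± 0.26 against wt (edgeR adjusted p = 3.53e-05) and by -1.32 ± 0.21 in the knockout (edgeR adjusted p = 4.59e-06). The antisense gene Gm49012 shares 4.39% of its exon bases. Ldb3, the tested gene next to it, was not called in Gal3Ko against wt (0.11 ± 0.06, edgeR adjusted p = 0.780) and was slightly higher in Mst1Gal3 against MstTg (0.23 ± 0.06, edgeR adjusted p = 0.0309). The promoter of Opn4 (chr14:34600143-34600392, minus strand), shown because it is the member with the largest positive knockout difference in both backgrounds, holds none of the 4 motifs.
Opn4: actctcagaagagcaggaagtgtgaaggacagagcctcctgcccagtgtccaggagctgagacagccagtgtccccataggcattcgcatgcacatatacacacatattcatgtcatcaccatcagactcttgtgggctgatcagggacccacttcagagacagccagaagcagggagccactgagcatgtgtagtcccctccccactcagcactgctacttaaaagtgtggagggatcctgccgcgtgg

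Of 12 genes of melanopsin signalling and other opsins, 7 were measured, and in MstTg against wt 2 rose and 2 fell (median 0.09). In Mst1Gal3 against Gal3Ko 3 rose and 1 fell (median -0.05), and scaled to library totals 4 rose and 1 fell in each. Opn3, an opsin found outside the eye, rose (2.10 ± 0.15, edgeR adjusted p = 8.39e-14), as did Plcb4, the phospholipase of the melanopsin cascade (1.04 ± 0.07, edgeR adjusted p = 2.46e-14). None of the 7 was called by edgeR with the knockout, with 0 in Gal3Ko against wt and 0 in Mst1Gal3 against MstTg at an unadjusted p under 0.05, and 0 and 0 called by DESeq2 and 0 and 0 by limma-voom.

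Epsti1 (ENSMUSG00000022014, chromosome 14, 77904239 to 78002657, plus strand), the farthest of the 10 from Lgals3, was lowest in Gal3Ko. Wt libraries ran from 0.869 to 1.985 CPM (median 1.56) and MstTg libraries from 1.11 to 1.997 CPM (median 1.66). Gal3Ko libraries ran from 0.467 to 1.03 CPM (median 0.685), and Mst1Gal3 libraries held 1.39, 0.865, 0.719, 0.843 and 1.33 CPM. Wt and MstTg overlapped, with the lowest wt library below all of MstTg, and each knockout group overlapped its intact counterpart. Gal3Ko minus wt was -1.09 ± 0.20 and Mst1Gal3 minus MstTg -0.57 ± 0.21 (log2). Mst-1 gave 0.02 ± 0.19 against wt, with no call (edgeR adjusted p = 0.936). Against Gal3Ko it gave 0.54 ± 0.22 (edgeR adjusted p = 0.0406), a call that was lost when Gal3Ko replicate 1, 2, 3, 7 or 8 or Mst1Gal3 replicate 1 or 5 was left out (edgeR adjusted p from 0.0521 to 0.150). It was also lost with limma-voom (adjusted p = 0.0713). The Gal3Ko libraries also enter the knockout difference for which the gene may have been chosen. The Mst-1 p-values of Epsti1 in the knockout are therefore not independent of that choice. The promoter (chr14:77903989-77904238, plus strand) is shown because the gene is known as interferon-inducible, and the core letters of the interferon response element, like the other 3 motifs, are not in this window.
Epsti1: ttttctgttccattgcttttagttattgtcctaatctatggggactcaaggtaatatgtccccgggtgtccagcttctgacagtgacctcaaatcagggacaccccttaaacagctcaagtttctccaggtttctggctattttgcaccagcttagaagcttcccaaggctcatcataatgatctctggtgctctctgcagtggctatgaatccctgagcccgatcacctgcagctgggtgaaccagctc

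The wider interferon response is given beside Epsti1. Of 24 other interferon-stimulated genes, all measured, 23 rose and 0 fell in MstTg against wt, with a median log2 change of 0.98 against 0.02 over all genes. In Mst1Gal3 against MstTg 24 of 24 were lower, with a median of -1.12 (all genes 0.02). Irf7, the interferon amplifier, had -1.99 ± 0.21 there (edgeR adjusted p = 9.00e-07) and Usp18, a brake on the interferon receptor, -1.48 ± 0.17 (edgeR adjusted p = 1.56e-06). In Gal3Ko against wt none was called (median -0.13), with 0 at an unadjusted p under 0.05 and 0 called by DESeq2 and limma-voom. In Mst1Gal3 against Gal3Ko 2 rose and 3 fell (median -0.06), and 7 rose and 1 fell when scaled to library totals.

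Wdfy4 (ENSMUSG00000051506, chromosome 14, 32959547 to 33185508, minus strand) also stood lower in both knockout groups. It ran from 8.02 to 13.4 CPM in wt (median 9.41) and from 6.83 to 10.4 CPM in MstTg (median 8.31). In Gal3Ko it ran from 3.85 to 7.62 CPM (median 4.88), and the Mst1Gal3 libraries held 4.40, 5.81, 5.53, 4.76 and 6.40 CPM. Wt did not overlap Gal3Ko, and MstTg did not overlap Mst1Gal3. The knockout difference was -0.91 ± 0.15 outside the Mst-1 background and -0.68 ± 0.16 within it, and the former was -0.75 and not called without the 6 libraries with atrial transcripts. Mst-1 gave -0.20 ± 0.15 against wt (edgeR adjusted p = 0.254) and 0.02 ± 0.16 in the knockout (edgeR adjusted p = 0.923), neither called. Dendritic cell markers were at low levels: of 8, Flt3, Xcr1, Clec9a, Batf3 and Cd209a had no row in the table. Itgax, Zbtb46 and Irf8 summed to 28.6 to 36.2 CPM in wt, 26.8 to 35.2 in MstTg, 26.7 to 35.3 in Gal3Ko and 25.7 to 31.6 in Mst1Gal3. None of these 3 was called in a knockout comparison (edgeR adjusted p from 0.488 to 0.989), with 0 in Gal3Ko against wt and 0 in Mst1Gal3 against MstTg at an unadjusted p under 0.05, and 0 and 0 called by DESeq2 and 0 and 0 by limma-voom.

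Trim13 (ENSMUSG00000035235, chromosome 14, 61598247 to 61605946, plus strand) was lower in both knockout groups, by a similar factor. Wt libraries ran from 3.30 to 5.55 CPM (median 4.37) and MstTg libraries from 4.17 to 5.83 CPM (median 4.43). Gal3Ko libraries ran from 1.20 to 2.72 CPM (median 1.75), and Mst1Gal3 libraries held 1.39, 1.52, 3.71, 1.60 and 1.76 CPM. Neither knockout group overlapped its intact counterpart, and Mst1Gal3 replicate 3, the high value, is 1 of the 6 libraries with atrial transcripts. Gal3Ko minus wt was -1.30 ± 0.19 and Mst1Gal3 minus MstTg -1.22 ± 0.20 (log2), 2.45-fold and 2.34-fold lower. Mst-1 gave 0.09 ± 0.18 against wt (edgeR adjusted p = 0.709) and 0.17 ± 0.21 in the knockout (edgeR adjusted p = 0.5225), neither called. Dleu2 spans the locus on the opposite strand with 0 exon bases in common. Spryd7, the gene next to it toward Lgals3, was not called in Gal3Ko against wt (-0.17 ± 0.07, edgeR adjusted p = 0.608) and was lower in Mst1Gal3 against MstTg (-0.31 ± 0.07, edgeR adjusted p = 0.00952).

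Of 13 endoplasmic reticulum ubiquitin ligases and autophagy partners of TRIM13, all measured, 2 rose and 5 fell in MstTg against wt (median -0.09), and 3 rose and 5 fell in Mst1Gal3 against Gal3Ko (median -0.08). Scaled to library totals, 7 rose and 1 fell in each. Sqstm1, the autophagy receptor p62, rose (0.62 ± 0.07, edgeR adjusted p = 5.39e-09), and Map1lc3b, which encodes the autophagosome protein LC3B, fell (-0.46 ± 0.06, edgeR adjusted p = 4.12e-08). By edgeR none of the 13 was called in a knockout comparison, with 1 in Gal3Ko against wt and 1 in Mst1Gal3 against MstTg at an unadjusted p under 0.05, and 0 and 0 called by DESeq2 and 0 and 0 by limma-voom.

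Mmrn2 (ENSMUSG00000041445, chromosome 14, 34375465 to 34404287, plus strand) was somewhat higher with the knockout. Wt libraries ran from 33.3 to 49.3 CPM (median 39.4) and Gal3Ko libraries from 40.8 to 55.7 CPM (median 52.3). MstTg libraries ran from 32.3 to 36.6 CPM (median 33.1), and Mst1Gal3 libraries held 38.2, 43.95, 39.75, 40.4 and 39.7 CPM. Wt and Gal3Ko overlapped, and MstTg and Mst1Gal3 did not. On the log2 scale the knockout difference was 0.33 ± 0.07 outside the Mst-1 background and 0.26 ± 0.07 within it. The first call was lost without wt replicate 6 (0.28), without the atrial libraries (0.26) or in a fit of the 2 groups alone. The second was lost without MstTg replicate 1, 3 or 4, without Mst1Gal3 replicate 2 or 4 (0.23 to 0.26) or without the atrial libraries (0.26), and both were lost on library totals (0.28 and 0.19). Mst-1 lowered Mmrn2 (-0.26 ± 0.07, edgeR adjusted p = 0.00192; in the knockout -0.34 ± 0.07, edgeR adjusted p = 0.000193). On library totals the Mst-1 changes were -0.02 and -0.11 and not called (edgeR adjusted p = 0.867 and 0.288). Sncg, the tested gene just before Mmrn2, was not called in the knockout comparisons (-0.65 ± 0.16, edgeR adjusted p = 0.0718, and -0.53 ± 0.18, edgeR adjusted p = 0.0792).

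Endothelial markers moved with Mst-1 as Mmrn2 did: 7 of 10 fell and 0 rose in both Mst-1 comparisons (medians -0.36 and -0.36). On library totals 2 and 4 fell, and 0 and 1 rose. They summed to 692 to 868 CPM in wt, 572 to 679 in MstTg, 667 to 816 in Gal3Ko and 537 to 598 in Mst1Gal3. None was called by edgeR in a knockout comparison, with 0 in Gal3Ko against wt and 3 in Mst1Gal3 against MstTg at an unadjusted p under 0.05, and 0 and 1 called by DESeq2 and 0 and 0 by limma-voom. Their part in the fall of Mmrn2 was not tested. Among 10 genes of the multimerin and EMILIN families and their endothelial partners 2 rose and 6 fell in MstTg against wt (median -0.39), and 3 rose and 7 fell in Mst1Gal3 against Gal3Ko (median -0.41). On library totals 3 rose and 5 fell in each. Emilin2 (-1.60 ± 0.13, edgeR adjusted p = 8.08e-12), Vegfa (-0.95 ± 0.08, edgeR adjusted p = 2.44e-11) and Kdr, the VEGF receptor (-0.78 ± 0.08, edgeR adjusted p = 5.36e-10), fell. Emilin1 rose (1.15 ± 0.10, edgeR adjusted p = 4.23e-11). With the knockout edgeR called none of these 10, with 1 in Gal3Ko against wt and 3 in Mst1Gal3 against MstTg at an unadjusted p under 0.05, and 0 and 0 called by DESeq2 and 0 and 0 by limma-voom.

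Galnt15 (ENSMUSG00000021903, chromosome 14, 32028989 to 32062197, plus strand) was, like Ncoa4, lower with each alteration. Between Galnt15 and Ncoa4 lie the tested genes Oxnad1 and Dph3, neither called in a knockout comparison. Galnt15 ran from 40.2 to 48.1 CPM in wt (median 43.5) and from 26.02 to 38.1 CPM in Gal3Ko (median 33.3). In MstTg it ran from 22.4 to 33.1 CPM (median 29.1), and the Mst1Gal3 libraries held 28.5, 22.4, 20.1, 21.9 and 24.3 CPM. All wt libraries lay above every other library, while the other groups overlapped each other. On the log2 scale the knockout difference was -0.40 ± 0.08 outside the Mst-1 background and -0.31 ± 0.09 within it. The first was not called without wt replicate 4 (-0.37) or the atrial libraries (-0.42). The second was not called without MstTg replicate 1, 2, 3, 4 or 7, without Mst1Gal3 replicate 2, 3, 4 or 5 (-0.26 to -0.32), without the atrial libraries (-0.26) or in a fit of the 2 groups alone. Mst-1 lowered Galnt15 (-0.59 ± 0.08, edgeR adjusted p = 4.49e-07), also in the knockout (-0.49 ± 0.09, edgeR adjusted p = 2.03e-05). Of 18 other GalNAc transferases and core 1 enzymes 10 were measured, and 2 rose and 4 fell in MstTg against wt (median 0.05), 5 and 1 on library totals. In Mst1Gal3 against Gal3Ko 2 rose and 3 fell (median -0.12), 4 and 1 on library totals. Galnt7 rose (0.71 ± 0.06, edgeR adjusted p = 2.66e-11), and edgeR called none of the 10 in a knockout comparison, with 0 in Gal3Ko against wt and 1 in Mst1Gal3 against MstTg at an unadjusted p under 0.05, and 0 and 0 called by DESeq2 and 0 and 0 by limma-voom.

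Over the 10 genes, the knockout differences fell into 3 patterns. Opn4, Mmrn2, Galnt15, Ncoa4, Trim13 and Wdfy4 had a difference of the same sign and similar size in both backgrounds, and Epsti1 one of the same sign. Their interaction, the knockout difference within the Mst-1 background minus that outside it, was between -0.07 and 0.22 on the log2 scale for those 6 and 0.51 ± 0.29 for Epsti1. Arhgap22 (interaction -2.24 ± 0.19) and Scara5 (1.25 ± 0.16) had their difference within the Mst-1 background, and Ptk2b (1.22 ± 0.23) outside it. The 2 knockout comparisons share no library, but both count as used in choosing the genes. The likeness of those 6 across backgrounds is therefore a description and not a replication. In Gal3Ko against wt 2 of the 10 were called higher and 6 lower, beside 0.177% of all tested genes called higher and 0.177% lower. In Mst1Gal3 against MstTg 3 were called higher and 5 lower, beside 2.54% and 2.35% of all genes. For the interaction 3 were called, beside 0.656% of all genes in either direction. All of these counts restate how the genes were chosen. Without the 6 libraries with atrial transcripts, 5 and not 8 were called in Gal3Ko against wt.

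**Figure D3:**
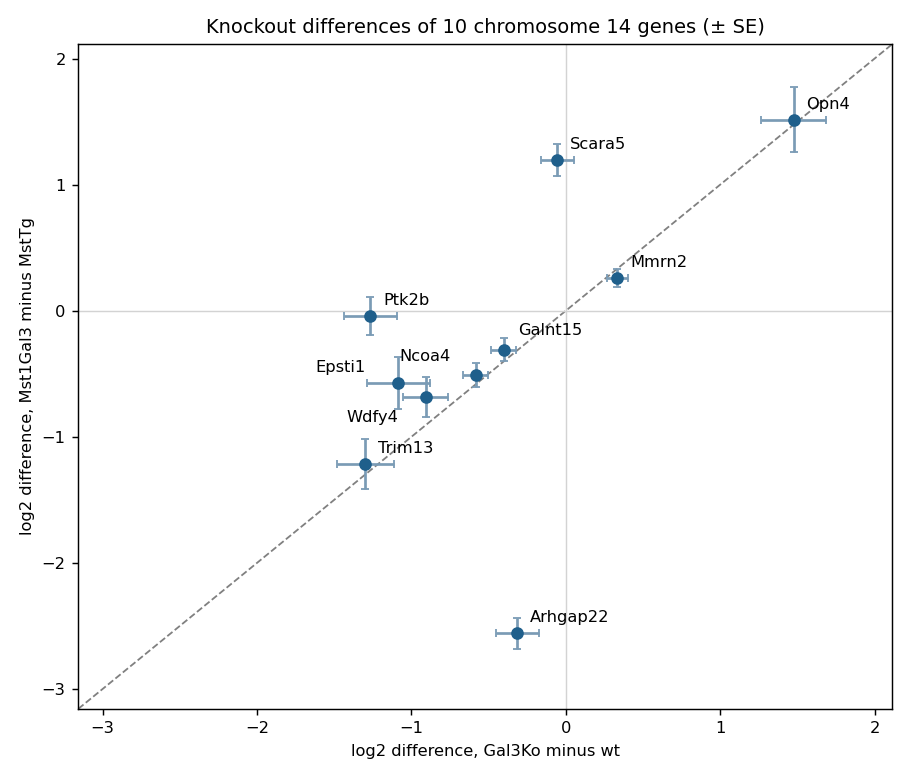
Log2 difference ± SE of the 10 genes for Gal3Ko minus wt (x axis) and Mst1Gal3 minus MstTg (y axis), with the dashed line at equal values. Opn4, Mmrn2, Galnt15, Ncoa4, Trim13 and Wdfy4 lie near the line, Arhgap22 below it, and Scara5 and Ptk2b above it.

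The Mst-1 comparisons were not those that chose the genes, although their libraries also enter the knockout comparisons. A group that set a gene apart by knockout thus also enters its Mst-1 comparison, as Gal3Ko for Epsti1 and Ptk2b and MstTg for Arhgap22 and Scara5. For Opn4, Mmrn2, Galnt15, Ncoa4, Trim13 and Wdfy4, called in both knockout comparisons, this holds for both Mst-1 comparisons. Opn4 and Mmrn2 stood high in Gal3Ko against wt and low in MstTg against Mst1Gal3, and each of these goes the way of their Mst-1 falls. The Mst-1 p-values with such a group are not independent of the choice. In MstTg against wt 2 of the 10 rose (Arhgap22, Ptk2b) and 5 fell (Scara5, Opn4, Galnt15, Ncoa4, Mmrn2), beside 28.2% of all tested genes called higher and 26.8% lower. In Mst1Gal3 against Gal3Ko 3 rose and 5 fell, beside 26.9% and 25.6%. The median log2 change of the 10 was -0.23 (all genes 0.02) and -0.16 (all genes 0.01), and the median size 0.54 and 0.51 (all genes 0.29 and 0.28). With 8385 and 8013 of 15249 genes called, these counts are no result about the 10 as a set, and the results are those of single genes. Scaling by library totals moved the median of all genes from 0.02 to 0.27 and from 0.01 to 0.24. On that scale Wdfy4, not called on either, turned from -0.20 to 0.04 in MstTg against wt. Arhgap22, Ptk2b, Scara5, Opn4 and Galnt15 were called with the same sign in both comparisons under all alternatives.

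**Figure D4:**
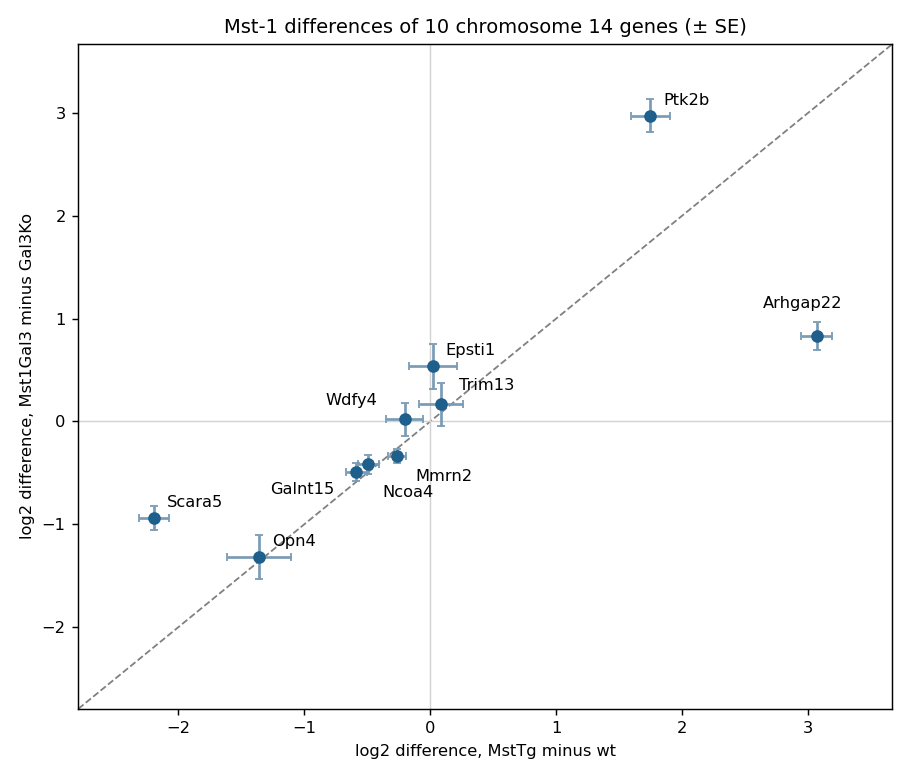
Log2 difference ± SE of the 10 genes for MstTg minus wt (x axis) and Mst1Gal3 minus Gal3Ko (y axis), with the dashed line at equal values. Ptk2b and Arhgap22 lie at the upper right on opposite sides of the line, Scara5 and Opn4 at the lower left, and Trim13 and Wdfy4 near 0.

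The windows around the 10 held both called and uncalled genes. Of 46 tested non-members that start within 0.5 Mb of a member, 1 was called in Gal3Ko against wt (2.17%) and 8 in Mst1Gal3 against MstTg (17.4%). Beside these stand 4% and 13.4% of tested chromosome 14 genes beyond 10 Mb, and 0.156% and 4.54% on other chromosomes. Called members that lie within 0.5 Mb of each other were left out of the 46, which lowers their shares. The 1 was Gm28651 near Wdfy4 (0.99 ± 0.17). The 8 were Anxa8, Fam35a, Ldb3, Ephx2, Chrna2, Zfp395, Spryd7 and Dnajc15. Dnajc15, next to Epsti1, was higher in Mst1Gal3 than in MstTg (0.27 ± 0.07, edgeR adjusted p = 0.0182), whereas Epsti1 stood lower there. Trim35, next to Ptk2b, was not called in either (-0.14 ± 0.07, edgeR adjusted p = 0.744, and 0.07 ± 0.07, edgeR adjusted p = 0.697). Timm23, next to Ncoa4, was not called either (-0.04 ± 0.08, edgeR adjusted p = 0.979, and 0.19 ± 0.09, edgeR adjusted p = 0.217).

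For each member the 2 genes with the nearest profile over the 26 libraries were taken, by the root mean square difference of centred log2 CPM among genes averaging 1 CPM or more. Several were themselves on chromosome 14. Ncoa4 had 2700060E02Rik (0.189) and Tmem260 (0.226), and Galnt15 had Tmem260 (0.211) and, on chromosome 1, Slc30a1 (0.212). Wdfy4 had Sncg (0.355) and Ripk3 (0.373), Trim13 had Wdfy4 (0.486) and Ppp1r3e (0.499), and Epsti1 had Psmb5 (0.404) and Rnase4 (0.406), all on chromosome 14. The nearest of Scara5, Mmrn2, Ptk2b and Arhgap22 were on other chromosomes, and that of Opn4 had no position in the annotation. Scara5 was nearest to Gstk1 (0.284) and Gpt (0.311), Mmrn2 to Abca7 (0.161) and Prdm11 (0.166), and Ptk2b to Svep1 (0.408) and Adap1 (0.430). Arhgap22 had no close match (Col14a1 0.605, Ifit3 0.621), nor had Opn4 (A930018M24Rik 0.596, Gm11273 0.694). These likenesses cover all 4 groups, whose differences they share, and are a description.

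The cell type marker lists are read against the share of all genes called in each comparison, given above. Of 12 fibroblast markers 9 rose and 2 fell in MstTg against wt, summing to 1440 to 2039 CPM in wt, 1430 to 1798 in Gal3Ko, 3539 to 4635 in MstTg and 3661 to 4110 in Mst1Gal3. Scara5, known from fibroblasts, fell there, as did 2 of these markers, while 9 of them rose. In Gal3Ko against wt 0 were called by edgeR, DESeq2 or limma-voom (1 at an unadjusted p under 0.05), and 2 were lower in Mst1Gal3 against MstTg (Ly6a -0.60 ± 0.10, edgeR adjusted p = 0.000149, and Mfap5 -0.64 ± 0.13, edgeR adjusted p = 0.00224), with 6 at an unadjusted p under 0.05 and 3 called by DESeq2. Of 9 cardiomyocyte markers 2 rose and 7 fell in MstTg against wt. Their sum had a median of 118751 CPM in wt, 119478 in MstTg, 127100 in Gal3Ko and 130685 in Mst1Gal3. In Gal3Ko against wt edgeR called 0 of the 9 (1 at an unadjusted p under 0.05) and DESeq2 1. In Mst1Gal3 against MstTg 2 were higher (Myh6 0.41 ± 0.09, edgeR adjusted p = 0.00298, on chromosome 14 itself, and Ryr2 0.22 ± 0.06, edgeR adjusted p = 0.0391), with 4 at an unadjusted p under 0.05 and 3 called by DESeq2. Of 11 macrophage markers, summing to 232 to 430 CPM in the 26 libraries, 2 rose and 1 fell in MstTg against wt (4 and 1 on library totals) and 0 were called in the knockout comparisons by edgeR, DESeq2 or limma-voom (1 and 1 at an unadjusted p under 0.05). Mst-1 raised 2 and lowered 3 of the 9 markers of smooth muscle and pericytes (4 and 3 on library totals), and 0 were called with the knockout by any of the 3 tools (0 and 1 at an unadjusted p under 0.05). The sum of these 9 had a median of 1355 CPM in wt, 892.5 in MstTg, 1326.5 in Gal3Ko and 969.1 in Mst1Gal3. The B cell markers Pax5 and Ighm summed to 3.24 to 9.79 CPM, with Pax5 higher in both Mst-1 comparisons (1.98 ± 0.41 and 1.24 ± 0.41, edgeR adjusted p = 0.000116 and 0.0108) and 0 called with the knockout by any tool (0 at an unadjusted p under 0.05). In Mst1Gal3 against Gal3Ko 9 fibroblast markers rose and 3 fell, 2 cardiomyocyte markers rose and 6 fell, 1 macrophage marker rose and 1 fell (10 and 0 on library totals), and of the smooth muscle and pericyte markers 4 rose, with 3 falling (5 and 3 on library totals). The 3 atrial genes with a row were called in no comparison by edgeR, DESeq2 or limma-voom, with 1 at an unadjusted p under 0.05 in edgeR's Gal3Ko against wt (3 in DESeq2's, median 2.187 by edgeR) and 0 in edgeR's other comparisons. Without the 6 libraries over 30 CPM, edgeR called the 3 higher in MstTg against wt (median 2.32). Those libraries were left out by the summed values of these same 3 genes, so this call is not a test of them. Of the dendritic cell markers Irf8 rose (0.46 ± 0.11, edgeR adjusted p = 0.000495) and Zbtb46 fell (-0.29 ± 0.08, edgeR adjusted p = 0.00406) in MstTg against wt, and both were called the same way in Mst1Gal3 against Gal3Ko. On library totals no dendritic cell marker was called lower in either comparison. The part of these cell types in the members' differences was not tested.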

How the data were processed

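RNA of mouse left ventricle was depleted of ribosomal RNA and made into directional libraries, per the labels' protocols. The deposited values are raw counts of reads, 1 row a gene and 26 libraries, per the submitters' processing notes made with bcl2fastq 2.19.1.403, STAR and featureCounts on GRCm38. Versions of the other tools, the annotation and the strand setting of the counting were not stated in these sources. The lowest mean count of any gene was 10.0, so genes below that level were not analysed here. Gene positions came from GENCODE M21, where 15195 identifiers matched and 54 had no entry.

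Counts were tested with edgeR 4.0.16 in R 4.3.3: TMM factors, filterByExpr (0 genes removed), robust quasi-likelihood fit, 1 mean per group, all 26 libraries in 1 fit (22 residual degrees of freedom, common biological coefficient of variation 0.114), two-sided, Benjamini-Hochberg adjustment over 15249 genes, threshold 0.05. Differences are given as log2 ± SE, and a gene past the threshold is named called. Log2 CPM used a prior count of 0.5. The interaction is Mst1Gal3 minus MstTg, less Gal3Ko minus wt. Both knockout comparisons and the interaction count as used in choosing the 10 genes. The genes and all gene lists were chosen with earlier results of these data known. Named genes are the 10, Lgals3 and Stk4, up to 4 genes of each pathway list with the smallest p in a comparison, the 2 nearest profiles, the called genes nearest the 10 Mb limit, and chromosomal neighbours. Markers of cell types, Anxa7, Il17rd and the called genes of the 0.5 Mb windows were named after their values were seen. Alternatives were DESeq2 1.42.0, limma-voom (limma 3.58.1), other scalings and filters, a replicate block, 2 groups alone, and leaving out libraries. No replicate pair looked like 1 library deposited again (chi-square over degrees of freedom at least 4.91 for every pair). The steps were tested on simulated data. Promoters come from the RefSeq table of GRCm38.p6, which held 7 of the 10 genes (not Mmrn2, Ptk2b or Scara5). Some list genes are not reported here by name.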

Additional observations from a re-analysis of the deposited data

Results flagged for a closer look

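Of 40 groups of 5 to 8 libraries, 1 for each gene and genotype, 3 held a library that stood apart from the rest of its group by Dixon's criterion, and chance flags about 1 in 20. Mmrn2 was low in Gal3Ko replicate 2, at 40.8 CPM (611 counts), against 48.8 to 55.7 CPM in the others. Trim13 was high in Mst1Gal3 replicate 3, at 3.71 CPM (98 counts), against 1.39 to 1.76 CPM in the others, and that library is also 1 of the 6 with atrial transcripts. Scara5 was high in wt replicate 2, at 32.8 CPM (666 counts), against 19.55 to 23.2 CPM in the others.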

How the results depend on the processing

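Without the 6 libraries with atrial transcripts, 5 of the 10 genes were called in Gal3Ko against wt, not 8 (Wdfy4, Mmrn2 and Galnt15 were lost), and the cause was not tested. No gene's value changed sign on a called comparison under any alternative. Over genes and alternatives, a call or its absence was kept in 229 values and lost in 1 for MstTg against wt, 219 and 11 for Mst1Gal3 against Gal3Ko, 232 and 8 for Gal3Ko against wt, 200 and 20 for Mst1Gal3 against MstTg, and 349 and 1 for the interaction. Among all genes, calls in Gal3Ko against wt numbered 54, and 33 without the atrial libraries, 33 in a fit of the 2 groups alone and 89 with DESeq2. In Mst1Gal3 against MstTg they numbered 746, 913 with DESeq2, 1027 without the atrial libraries and 469 to 1040 with 1 library left out (lowest without Mst1Gal3 replicate 1, highest without MstTg replicate 5). The interaction had 100, 195 with DESeq2 and 52 to 189 with 1 library left out. On library totals the calls higher and lower were 7789 and 2166 in MstTg against wt (4302 and 4083 with TMM), 7374 and 1929 in Mst1Gal3 against Gal3Ko (4108 and 3905), 16 and 45 in Gal3Ko against wt (27 and 27) and 136 and 558 in Mst1Gal3 against MstTg (387 and 359).

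The groups share replicate numbers in the labels, but the numbers did not pair the libraries: over 34 same-numbered pairs the correlation of deviations ran from -0.394 to 0.397 (median 0.018). With the replicate block, 7 genes of the 10 were called in MstTg against wt, 7 in Mst1Gal3 against Gal3Ko (Epsti1 lost), 7 in Gal3Ko against wt (Mmrn2 lost), 6 in Mst1Gal3 against MstTg (Mmrn2 and Galnt15 lost) and 2 for the interaction (Ptk2b lost). Among all genes the block gave 8301, 7911, 42, 608 and 51 calls.

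Depth limits Opn4 in MstTg (2 to 17 counts) and Epsti1 in Gal3Ko (7 to 24 counts).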
